A study of Mus musculus with 36 samples.

Results

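The transcripts of 10 genes that mark radial glia and neural stem cells were followed in neurosphere cultures of fetal mouse neural stem cells (NSCs) and in the extracellular vesicles (EVs) that the cultures shed. The genes, Sox2, Pax6, Nes, Vim, Hes1, Hes5, Notch1, Fabp7, Slc1a3 and Sox9, were listed by name and matched by symbol among the 40205 features counted. The listing rule used no measured value, although earlier results of these data were known when the list was made. Of the 10, 9 had counts and passed the filter on low counts in every comparison, and Sox2 had none. NSCs of the dorsal telencephalon were taken at gestational day 12.5 from 3 pregnancies (sets 3, 4 and 5) of C57BL/6J mice, labelled wild type and described in the methods of the study as the Ai14 line. Fetal tissue was pooled by sex within a pregnancy, so each female or male culture stands for a pool of littermates that was expanded over several passages, and a set is 1 litter. Each of the 6 cultures was kept for 5 days without ethanol or with 120 mg/dL (26 mM) or 320 mg/dL (70 mM) ethanol, and gave 1 cell library and 1 EV library per dose. The 18 cell and 18 EV libraries therefore made 12 groups, and each group had 3 libraries from 3 litters.

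Radial glia are the stem cells of the embryonic cortex. Their fate is held by Notch signalling, in which the cleaved receptor Notch1 acts with the DNA-binding protein RBPJ to turn on Hes1 and Hes5, repressors of the genes that drive neuron formation. Sox2, Sox9 and Pax6 are transcription factors of these cells, Nes and Vim code for intermediate filaments of their long processes, and Fabp7 and Slc1a3 code for the brain fatty acid-binding protein and the glutamate transporter GLAST.

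The RBPJ core motif is shown in the promoters of the members that hold it, since Hes5 was the member most enriched in EVs and, in cells, the one that differed most between cultures. RefSeq promoter windows (250 bases before to 50 after the start of transcription, build GRCm38.p6) were found for 8 of the 10 genes. Of these, Hes5 and Fabp7 held the core TGGGAA on either strand, which 25.6% of 32851 promoters of the same length hold. A match of 6 letters is a description of the sequence and not a bound site. The windows lie at chr4:154960673-154960972 for Hes5 and chr10:57784673-57784972 for Fabp7, both on the plus strand, with the motif or its reverse complement TTCCCA in capitals.
Hes5: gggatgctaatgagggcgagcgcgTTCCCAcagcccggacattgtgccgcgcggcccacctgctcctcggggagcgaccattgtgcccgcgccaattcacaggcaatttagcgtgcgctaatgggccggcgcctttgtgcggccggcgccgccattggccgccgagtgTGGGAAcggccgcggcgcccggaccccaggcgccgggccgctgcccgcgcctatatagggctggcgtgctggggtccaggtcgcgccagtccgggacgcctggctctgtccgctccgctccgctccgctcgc
Fabp7: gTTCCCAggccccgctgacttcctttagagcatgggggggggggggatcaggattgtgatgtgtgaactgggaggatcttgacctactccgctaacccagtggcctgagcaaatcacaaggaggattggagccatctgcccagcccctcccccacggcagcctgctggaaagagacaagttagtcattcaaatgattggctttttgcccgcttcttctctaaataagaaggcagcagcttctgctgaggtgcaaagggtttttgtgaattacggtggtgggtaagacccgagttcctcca
In Hes5 the matches begin at positions -226 (minus strand) and -82 (plus strand) relative to the start, and in Fabp7 the match begins at position -249 (minus strand).

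Totals ranged from 26566061 to 55282322 counts in cells and from 959217 to 5509952 in EVs, with 6 EV libraries under 2000000. Levels are CPM (counts-per-million), with the library size scaled by the trimmed mean of M values (TMM). The mitochondrial ribosomal RNA mt-Rnr2 took from 17.3% to 30.3% of the counts of a cell library, and the 10 leading features took from 33.9% to 70.4% of an EV library. The EV library of the female culture of set 4 at 320 mg/dL had the 70.4% and the smallest TMM factor, 0.383. The factors of the other EV libraries ran from 0.496 to 1.14, and those of cell libraries from 0.958 to 1.72. The next highest share was 66.0%, in the EV library of the male culture of set 5 at 120 mg/dL. Leaving out the library of set 4 changed no call on a member. The label of dorsal telencephalic NSCs was checked against marker lists. The 24 other radial glia and neural stem cell genes summed to 2638 to 5015 CPM in cells, and among them Sox1 had no counts. The 16 markers of blood, vessel, microglia and other non-neural cells summed to 1.51 to 4.77 CPM in cells and 5.92 to 42.4 CPM in EVs, with Cldn5 at 0 in EVs. P2ry12, at 0 in both, lies inside another gene, a class of genes nearly all at 0, and bears on neither. Of the dorsal telencephalon genes, Emx2 averaged 5.58 CPM and Lhx2 4.45 CPM in cells, while Emx1 averaged 0.185 CPM and Tfap2c 0.0657 CPM. The oligodendrocyte lineage factors Olig1 and Olig2 averaged 266 and 85.7 CPM in cells, and the astrocyte filament gene Gfap 87.1 CPM. Because these are bulk cultures, fewer cells of a type and less RNA per cell cannot be told apart.

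Sox2, the transcription factor that holds neural progenitors in the stem cell state, had 0 counts in each of the 36 libraries. By sampling alone, a count of 0 allows up to 3 counts in a library. That is 0.0354 to 0.118 CPM in cells and 0.705 to 5.09 CPM in EVs. This bound holds for Sox2 only if reads of the gene could be counted. Sox2 is a single-exon gene at chr3:34704554-34706610 (GRCm39, plus strand) and lies inside the long noncoding gene Sox2ot, which covers 100% of its span in RefSeq. Sox2ot itself had 348 to 2297 counts in cells (median 907) and 12 to 97 in EVs (median 53.5). Protein-coding genes that lie inside the span of another gene were without counts in all 36 libraries in 852 of 878 cases (97%). The share was 0.732% of 6830 genes that partly overlap another gene and 6.51% of 14004 genes with no overlap. Sox1, a related stem cell factor gene that also lies inside another gene, was at 0 too. The part of the overlap in the count of Sox2 was not tested, and no level, fold or test is given for Sox2. Pax6 shares 4.86% of its RefSeq span with Pax6os1 and 3.7% with Elp4, and Notch1 shares 3.24% with 0610009E02Rik, and how reads in the shared bases were counted is not given in the sources used here. The other 7 members overlap no gene in RefSeq.

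**Figure D1:**
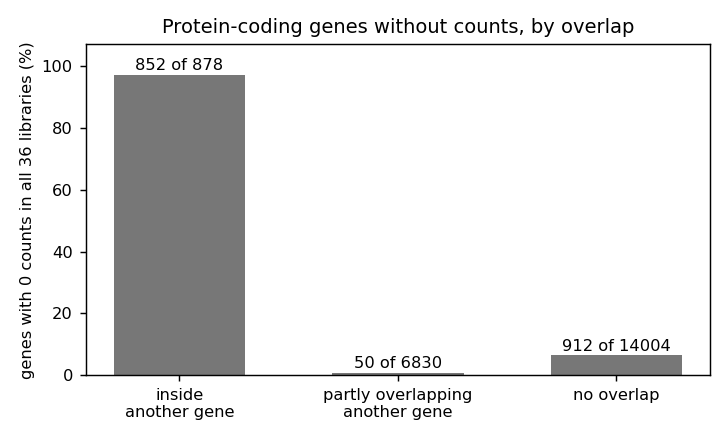
Share of protein-coding genes (percent, y axis) with 0 counts in all 36 libraries, for genes inside another gene, partly overlapping another gene or overlapping none (x axis), with the number of genes above each bar. Of the genes inside another gene, the class of Sox2, 852 of 878 had no counts.

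The filament genes were lower in EVs than in cells in most pairs. Vim (chr2:13578738-13587639, plus strand), the vimentin gene, ranged from 614 to 2183 CPM over the 18 cell libraries with a median of 1168 CPM, and from 333 to 596 CPM over the EV libraries with a median of 423 CPM. The groups did not overlap, with every cell library above every EV library. The share of all genes that separate in this way was not counted, and 80.5% of 15281 genes passed between EVs and cells. Nes (chr3:87878385-87887758, plus strand), the nestin gene, ranged from 79.0 to 411 CPM in cells (median 257 CPM) and from 96.7 to 225 CPM in EVs (median 151 CPM). The ranges overlapped, and the low end in cells was the female culture of set 5, in which cells and EVs averaged 106 and 109 CPM.

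The fatty acid-binding and glutamate transporter genes were lower in EVs in every pair. Fabp7 (chr10:57660956-57664554, plus strand) ranged from 306 to 1389 CPM in cells (median 721 CPM) and from 138 to 394 CPM in EVs (median 250 CPM). The ranges overlapped between libraries of different cultures, but in each of the 18 pairs of EV and cell library the EV value was the lower. Slc1a3 (chr15:8663604-8741595, minus strand) ranged from 542 to 1188 CPM in cells (median 892 CPM) and from 58.1 to 152 CPM in EVs (median 97.1 CPM). The lowest cell library lay more than 3-fold above the highest EV library, and here too the share of all genes that separate was not counted.

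Of the Notch pathway members, Notch1 (chr2:26347915-26406675, minus strand), the receptor, ranged from 53.4 to 139 CPM in cells (median 102 CPM) and from 50.4 to 120 CPM in EVs (median 68.4 CPM). Hes1 (chr16:29882134-29886643, plus strand) ranged from 9.05 to 27.3 CPM in cells (median 16.0 CPM) and from 3.15 to 21.6 CPM in EVs (median 5.16 CPM). The Hes1 values in EVs rest on 2 to 39 counts a library, so their counting error is large. Hes5 (chr4:155045373-155046828, plus strand) ranged from 4.49 to 48.7 CPM in cells (median 13.4 CPM) and from 29.5 to 73.2 CPM in EVs (median 48.9 CPM). The 2 ethanol-treated cell libraries of the female culture of set 5, at 46.8 and 48.7 CPM, were the only cell libraries that reached the range of the EVs.

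Of the transcription factors, Sox9 (chr11:112673009-112678586, plus strand), which also works in the switch from neuron to glia formation, ranged from 18.2 to 113 CPM in cells (median 50.2 CPM) and from 56.0 to 154 CPM in EVs (median 69.0 CPM). Pax6 (chr2:105499234-105530952, plus strand), which sets dorsal identity in the telencephalon, ranged from 7.73 to 31.1 CPM in cells (median 16.3 CPM) and from 1.70 to 19.0 CPM in EVs (median 12.9 CPM). Both ranges overlapped.

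**Figure D2:**
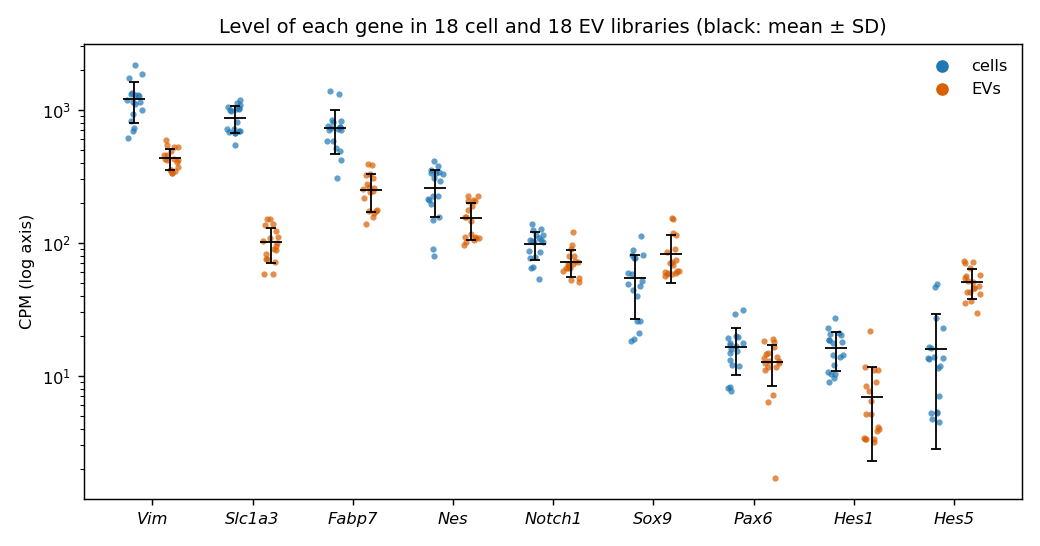
CPM (log axis) of the 9 members with counts in 18 cell libraries (blue) and 18 EV libraries (orange); points are libraries and black marks are the mean ± SD. Slc1a3 and Vim separate completely, and the share of all genes that do so was not counted. Hes5 sits higher in EVs, at 29.5 to 73.2 CPM against 4.49 to 48.7 CPM in cells.

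Divided by the length of the canonical GENCODE transcript, Fabp7 and Vim led in cells, at 776 ± 285 and 549 ± 186 CPM per kb (SD, n = 18), and Fabp7 was above Vim in 12 of 18 libraries. Slc1a3 followed at 207 ± 47.5 CPM per kb and Nes at 41.8 ± 16.1 CPM per kb, each below the gene before it in all 18 libraries. Sox9 (12.98 ± 6.55), Hes5 (12.5 ± 10.3), Hes1 (10.5 ± 3.42) and Notch1 (10.3 ± 2.45 CPM per kb) did not differ beyond their spread, since each neighbour was the higher in only 9 or 10 of 18 libraries. Pax6 came last at 2.82 ± 1.08 CPM per kb, below Notch1 in all 18 libraries. In EVs Fabp7 (264 ± 82.2 CPM per kb) and Vim (197 ± 35.9 CPM per kb) again led, but Hes5 came next at 39.8 ± 10.1 CPM per kb and above Nes (24.96 ± 7.73 CPM per kb) in 17 of 18 libraries. Slc1a3 stood at 24.0 ± 7.05 CPM per kb in EVs, above Nes in 8 of 18 libraries and thus not told apart from it. Pax6 was last in EVs as well, at 2.19 ± 0.745 CPM per kb.

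In cells, members differed more between cultures than between doses. In cells the culture accounted for 66.8% (Notch1) to 96.3% (Vim) of the sum of squares of log2 CPM over 18 libraries, and the dose for 0.775% (Pax6) to 3.63% (Slc1a3). Hes5 spanned the widest range in cells, from 5.09 ± 0.332 CPM in the female culture of set 4 to 40.9 ± 11.9 CPM in the female culture of set 5 (SD, n = 3 doses), a 7.73-fold range of the geometric means. Sox9 spanned 4.67-fold, from 19.3 ± 1.35 CPM in the male culture of set 3 to 91.4 ± 18.4 CPM in the male culture of set 5. Nes and Vim ran the other way, with their lowest levels in the female culture of set 5 (106 ± 37.0 and 681 ± 60.6 CPM). Over the 18 cell libraries Hes5 correlated with Nes at Pearson r = -0.85 and with Vim at r = -0.86, and Nes with Vim at r = 0.85. These libraries come from 6 cultures, so such values describe the cultures and have no p.

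Between cultures, 5 members spanned a narrower range in EVs than in cells, with Hes5 at 1.95-fold, Sox9 at 2.35-fold (4.67-fold in cells), Nes at 1.95-fold (3.55-fold), Vim at 1.45-fold (2.82-fold) and Fabp7 at 2.31-fold (2.77-fold). Pax6 (3.59-fold against 3.26-fold), Hes1 (2.48-fold against 2.25-fold) and Slc1a3 (1.93-fold against 1.78-fold) spanned slightly more in EVs, and Notch1 spanned 1.76-fold in both. Culture accounted for 38.3% (Hes1) to 92.8% (Fabp7) of the sum of squares in EVs, and dose for 0.236% (Fabp7) to 30.3% (Hes1). These shares, like those in cells, are not corrected for the 6 cultures against 3 doses. For Hes1 in EVs they therefore do not show whether culture or dose was the larger source. Across the 18 pairs, the EV level followed the cell level closely for Pax6 and Hes5 (Pearson r = 0.75 for each, Spearman 0.86 and 0.84), less so for Sox9 (0.65) and Vim (0.62), and hardly for Hes1 (0.039) or Notch1 (-0.31). The pairs share their cultures and EV and cell libraries of a pair share their flasks, so these correlations are descriptions.

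**Figure D3:**
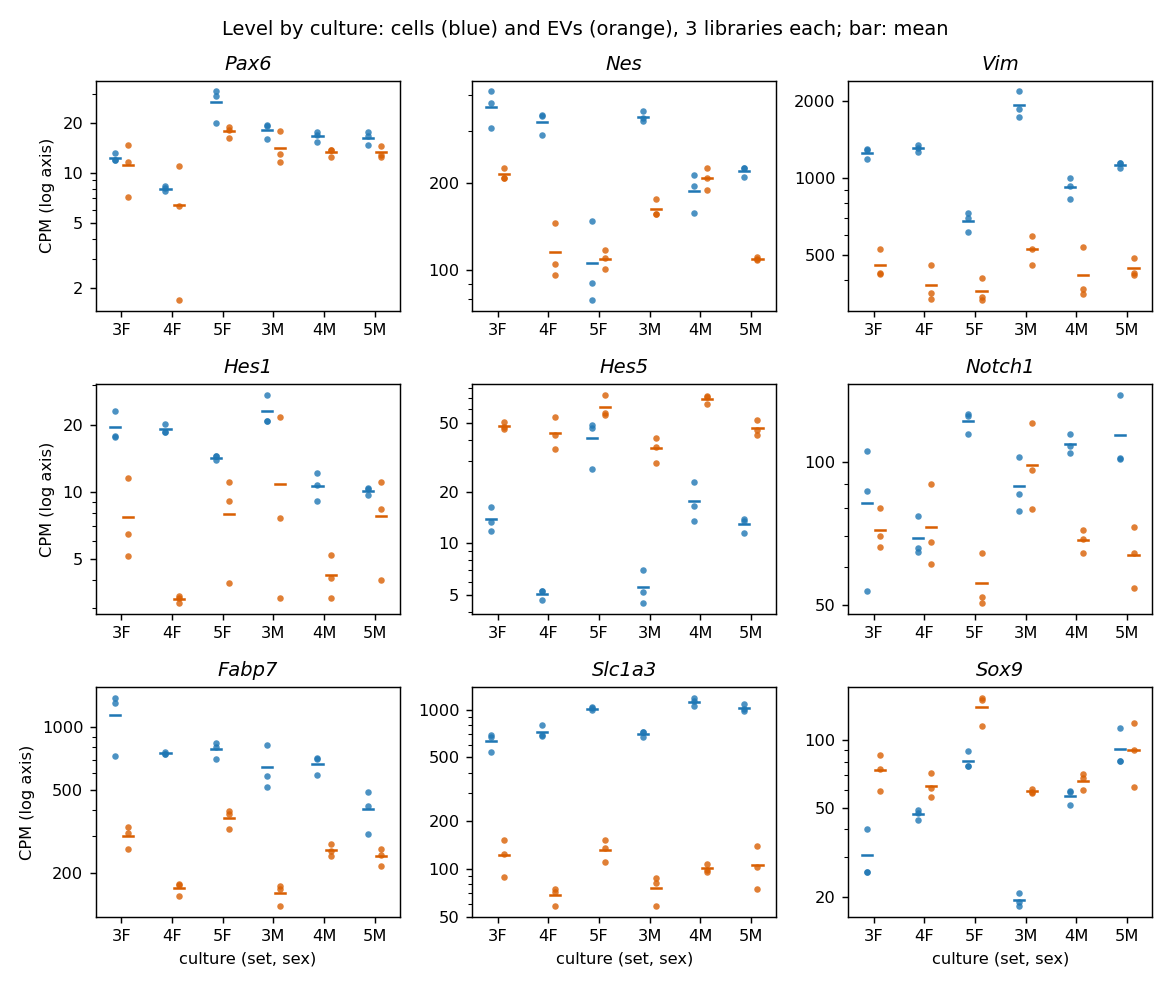
CPM (log axis) of the 9 members by culture (x axis: set and sex) in cells (blue) and EVs (orange), 3 libraries each, with the mean as a bar. In cells Hes5 was lowest in the female culture of set 4 (5.09 CPM) and highest in the female culture of set 5 (40.9 CPM), and in EVs its cultures spanned 1.95-fold.

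EVs were compared with cells to ask which of the transcripts that define these cells EVs carry at a level unlike that of the cells. Of the 9 members tested, 8 passed an adjusted p of 0.05 in edgeR's quasi-likelihood test (Benjamini-Hochberg), 6 lower and 2 higher in EVs. The background is high, since 80.5% of 15281 genes passed, 42.2% lower and 38.4% higher in EVs. The median difference was -0.74 on the log2 scale over the members and -0.08 over all genes tested. The members at the ends of this range were Slc1a3 and Hes5.

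Slc1a3 was the member most depleted in EVs, by 3.11 ± 0.133 on the log2 scale (SE), or 8.66-fold (adjusted p = 1.9e-20, edgeR), and lower in 18 of 18 pairs. The depletion held within each culture, from 5.31-fold in the female culture of set 3 to 11.1-fold in the male culture of set 4. Fabp7 was lower by 1.53 ± 0.147 (adjusted p = 1.66e-11, edgeR) and Vim by 1.47 ± 0.137 (adjusted p = 6.17e-12, edgeR), each in 18 of 18 pairs. Hes1 was lower by 1.28 ± 0.204 (adjusted p = 7.87e-07, edgeR) in 16 of 18 pairs.

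Hes5 was higher in EVs by 1.75 ± 0.259 on the log2 scale, or 3.36-fold (adjusted p = 3.04e-07, edgeR), in 18 of 18 pairs. The size of its enrichment differed between cultures, from 1.56-fold in the female culture of set 5, where cells held the most Hes5, to 8.48-fold in the female culture of set 4, where they held the least. The level in cells is the divisor of this fold, so its order over cultures is no separate result. Hes1 and Hes5, both targets of Notch signalling, thus differed from cells in opposite directions. With counts summed over the doses of a culture, so that 6 cultures are compared, Slc1a3 was at -3.40 (adjusted p = 1.57e-06, edgeR) and Hes5 at 1.72 (adjusted p = 0.000167, edgeR). The calls on Slc1a3, Fabp7, Vim, Hes1 and Hes5 and their directions were kept in all 14 alternatives run, with Slc1a3 at -3.90 to -2.63 and Hes5 at 0.96 (library totals) to 2.30 (without set 5).

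The calls on the other members were lost or gained under some alternatives. Nes was lower by 0.74 ± 0.186 (adjusted p = 0.00052, edgeR) in 13 of 18 pairs, but not in the female culture of set 5 and the male culture of set 4, where EVs averaged 1.07-fold and 1.11-fold the cells. Its call was lost when EV libraries under 2000000 counts were left out (log2 difference -0.43, adjusted p = 0.105) and when every library was thinned to the smallest total (-0.29, adjusted p = 0.128). Notch1 was lower by 0.44 ± 0.114 (adjusted p = 0.000675, edgeR) in 15 of 18 pairs, but its difference was -0.11 without set 5 (adjusted p = 0.42), -0.14 with upper-quartile factors (adjusted p = 0.269) and -0.01 when thinned (adjusted p = 0.973). In control libraries alone the Notch1 difference was -0.49 and did not pass (adjusted p = 0.1, edgeR). Sox9 was higher by 0.59 ± 0.214 (adjusted p = 0.013, edgeR) in 17 of 18 pairs, but at -0.23 with library totals in place of TMM and -0.07 without the filter, neither of which passed. Without set 3 its difference was 0.39 (adjusted p = 0.0649). The Sox9 call was also lost in control libraries alone (0.55, adjusted p = 0.0752, edgeR). It was lost again without EV libraries under 2000000 counts and their cell libraries (0.48, adjusted p = 0.0698, edgeR). With counts summed over the doses of a culture and the culture as a replicate block, the Sox9 difference was 0.41 (adjusted p = 0.157).

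Pax6 had a difference of -0.32 ± 0.178 (95% interval -0.68 to 0.04, adjusted p = 0.0984, edgeR) and was lower in 16 of 18 pairs. In a fit that takes each EV library and its cell library as a replicate block, the value was -0.34 and passed (adjusted p = 0.00395, edgeR), as it did in the culture-summed fit (-0.59, adjusted p = 0.00701). Library totals moved the median of all genes from -0.08 to -0.88 and upper-quartile factors moved it to 0.23, so each member's value is relative to that median. Of the genes called, 52.4% were lower in EVs with TMM, 73.0% with library totals, 42.1% with upper-quartile factors and 27.1% in DESeq2 without a filter.

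**Figure D4:**
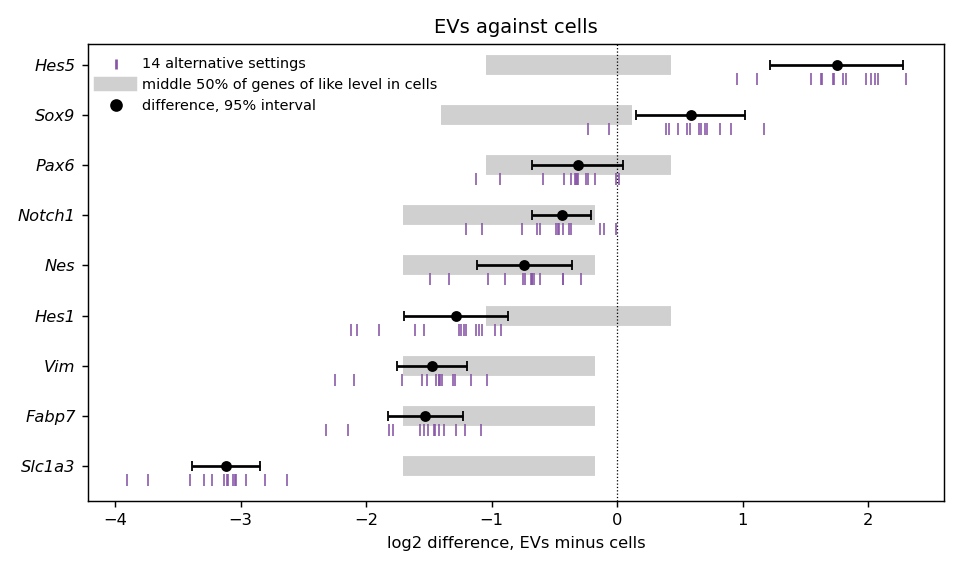
Log2 difference of EVs minus cells (x axis) for each member (y axis), with its 95% interval, the values under 14 alternative settings (purple ticks) and, in grey, the middle 50% of genes in the same decile of mean CPM in cells. Slc1a3 (-3.11) and Hes1 (-1.28) lie below the grey band and Sox9 (0.59) and Hes5 (1.75) above it, as by definition do 50% of genes on 1 side or the other.

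The difference between EVs and cells moved with the level in cells. From decile 6 to the highest decile of mean CPM in cells, which hold all 9 members, the median log2 difference went from -0.38 to -0.97. Cell counts enter both measures, and genes of the lowest deciles could pass the filter through their EV level, so those deciles are not used here. Nes, Vim, Notch1, Fabp7 and Slc1a3 were in the highest decile, where the middle 50% of genes ran from -1.71 to -0.18, and of these Slc1a3 alone lay outside it. Pax6, Hes1 and Hes5 were in decile 6 (-1.05 to 0.43), with Hes5 above and Hes1 below that range. Sox9 was in decile 9 (-1.41 to 0.12), and above it. By definition 50% of the genes of a decile lie outside such a range, so a place outside it does not by itself set a member apart. The GC content of the transcript moved with the difference as well (Spearman 0.21 over 14306 genes), from a median of -0.82 in the decile of lowest GC to 0.41 in that of highest. The Hes5 transcript has 62.2% GC, in the highest decile, and that of Slc1a3 46.7%. The part of expression level and GC content in the members' differences was not tested.

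Other genes of the pathway were read from fixed lists. Of 25 Notch pathway genes tested beside the members, 11 were lower in EVs, 8 were higher and 6 did not pass, with a median of -0.40 against -0.08 over all genes. Those that were lower included Ncstn (-2.80 ± 0.118 on the log2 scale) and Adam10 (-1.72 ± 0.0781), which code for a subunit of a protease and a protease that cleave Notch receptors. The ligand gene Jag1 (-1.52 ± 0.157) and the transcription factor gene Rbpj (-1.05 ± 0.146) were lower too. Those that were higher included the receptor gene Notch3 (2.50 ± 0.171), Maml3 (2.00 ± 0.27), which codes for a coactivator, the ligand gene Dll3 (1.77 ± 0.235) and the feedback inhibitor gene Nrarp (1.57 ± 0.255).

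Of 23 other radial glia and neural stem cell genes tested, 14 were lower in EVs, 6 were higher and 3 did not pass, with a median of -0.65. The lowest were Tnc (-3.53 ± 0.173), which codes for a matrix protein, Ptprz1 (-2.47 ± 0.146), Fgfr2 (-2.18 ± 0.267), Cdh2 (-2.09 ± 0.11) and the glutamate transporter gene Slc1a2 (-1.89 ± 0.173). The 6 that were higher were Prom1 (1.10 ± 0.417), Nr2e1 (1.09 ± 0.191), Zbtb20 (1.01 ± 0.199), Sox3 (0.77 ± 0.155), Sox21 (0.52 ± 0.126) and Msi1 (0.49 ± 0.11). Transcriptional regulators were found on both sides, since Hopx (-1.31 ± 0.32), Id4 (-0.65 ± 0.241) and Nfia (-0.55 ± 0.101) were lower. Of 12 intermediate progenitor and neuron genes, 4 were higher and 4 were lower, and of 11 oligodendrocyte and astrocyte lineage genes 3 were higher and 5 were lower. The astrocyte gap junction gene Gja1 (-3.33 ± 0.218) was the lowest of these. Of 3 dorsal telencephalon genes 2 were higher and 1 was lower, and of 4 ventral telencephalon genes 2 were higher and 1 was lower. Of the 16 non-neural genes 4 passed the filter, at 0.345 (Csf1r) to 0.712 (Pecam1) CPM on average in cells and 1.51 (Csf1r) to 3.66 (Col1a1) CPM in EVs. Genes so low in cells could pass the filter through their EV level, so their direction is no result, and the same holds for Mfng, Notch4, Dlx5 and Gad2, each under 1 CPM in cells and counted above as higher.

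Ethanol was compared with control within each culture to ask whether exposure shifts stem cell identity transcripts. In cells, 0 of 9 members passed at 320 mg/dL in edgeR, where 0.0393% of 17792 genes passed, and 0 of 9 in DESeq2. At an unadjusted p under 0.05 there were 2 of 9, Hes5 and Slc1a3, against 8.57% of all genes. The 95% intervals of the 9 log2 differences lay between -0.50 and 0.65 over the members, from the lowest to the highest bound, and the single intervals differed in width, with Slc1a3 at 0.02 to 0.29, Vim at -0.23 to 0.07 and Fabp7 at -0.33 to 0.35.

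Slc1a3 in cells had 542, 862 and 1055 CPM as the lowest, median and highest of 6 control libraries and 688, 921 and 1188 CPM at 320 mg/dL. The groups overlapped, yet all 6 cultures had more at 320 mg/dL (log2 difference 0.15 ± 0.0641, adjusted p = 0.524, edgeR). Hes5 in cells had 4.71, 11.7 and 27.1 CPM in controls and 5.22, 15.1 and 48.7 CPM at 320 mg/dL, and was higher in 5 of 6 cultures (0.34 ± 0.143, adjusted p = 0.524, edgeR). Neither reached the adjusted threshold. The 120 and 320 mg/dL comparisons share the control libraries.

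At 120 mg/dL in cells, 0 of 9 members passed in edgeR and in DESeq2 (0% of all genes in edgeR), and 0 of 9 at an unadjusted p under 0.05 (2.50% of all genes), with intervals between -0.51 and 0.46. Hes1 was lower in 6 of 6 cultures, at -0.15 ± 0.0832 (edgeR, adjusted p = 1). Between 320 and 120 mg/dL in cells 0 of 9 members passed in both tools, with 0% of all genes in edgeR, and 0 of 9 at the unadjusted level (3.56% of all genes).

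In EVs, 0 of 9 members passed at 320 mg/dL in edgeR (0.0842% of 11880 genes) and in DESeq2. At the unadjusted level there were 3 of 9, Hes1, Slc1a3 and Sox9, against 11.9% of all genes. At 120 mg/dL, 0 of 9 passed in edgeR (0.00842% of all genes) and in DESeq2, and 1 of 9, Hes1, at the unadjusted level (6.26% of all genes). Between 320 and 120 mg/dL, 0 of 9 passed in both tools (0% of all genes in edgeR) and 1 of 9, Slc1a3, at the unadjusted level (3.69% of all genes).

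Hes1 in EVs had 3.15, 3.93 and 5.14 CPM as the lowest, median and highest control library, 3.32, 7.74 and 21.6 CPM at 120 mg/dL and 3.34, 8.01 and 11.5 CPM at 320 mg/dL. The control libraries were the more alike, and their range overlapped both treated ranges. The log2 difference was 1.05 ± 0.328 at 120 mg/dL (95% interval 0.36 to 1.75, adjusted p = 0.748, edgeR) with 6 of 6 cultures higher, and 0.95 ± 0.328 at 320 mg/dL (95% interval 0.26 to 1.65, adjusted p = 0.24, edgeR) with 5 of 6 higher. The highest value, in the male culture of set 3 at 120 mg/dL, rests on 13 counts. Without the filter on low counts the 120 mg/dL difference passed (0.99, adjusted p = 0.032, edgeR), and over the alternatives its adjusted p ran from 0.032 to 1.

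Slc1a3 in EVs had 74.9, 85.5 and 110 CPM in controls, 58.1, 101 and 136 CPM at 120 mg/dL and 71.3, 123 and 152 CPM at 320 mg/dL. The ranges overlapped, and the log2 difference at 320 mg/dL was 0.39 ± 0.136 (adjusted p = 0.259, edgeR). It was higher in 5 of 6 cultures on the scale of all 36 libraries and in 6 of 6 when the EV libraries were scaled among themselves. Sox9 in EVs had 56.0, 61.0 and 115 CPM in controls and 58.4, 78.4 and 150 CPM at 320 mg/dL, and was higher in 4 of 6 cultures (0.35 ± 0.13, adjusted p = 0.288, edgeR). The other 6 members had differences between -0.02 (Nes) and 0.15 (Pax6) at 320 mg/dL in EVs.

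An exact two-sided sign-change permutation test over the 6 cultures gave its smallest possible p, 0.03125, in 4 of 36 tests of member, location and dose. These were Hes1 in cells at 120 mg/dL (mean log2 change -0.15 ± 0.111, SD, n = 6; exact permutation), Slc1a3 in cells at 320 mg/dL (0.15 ± 0.108), Hes1 in EVs at 120 mg/dL (0.95 ± 0.966) and Slc1a3 in EVs at 320 mg/dL (0.39 ± 0.352). Adjusted over the 36 tests, each of the 4 had p = 0.281 in this permutation test. The test was run on the members alone. No share over all genes stands beside the count of 4, so it is not read as a trait of the members.

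**Figure D5:**
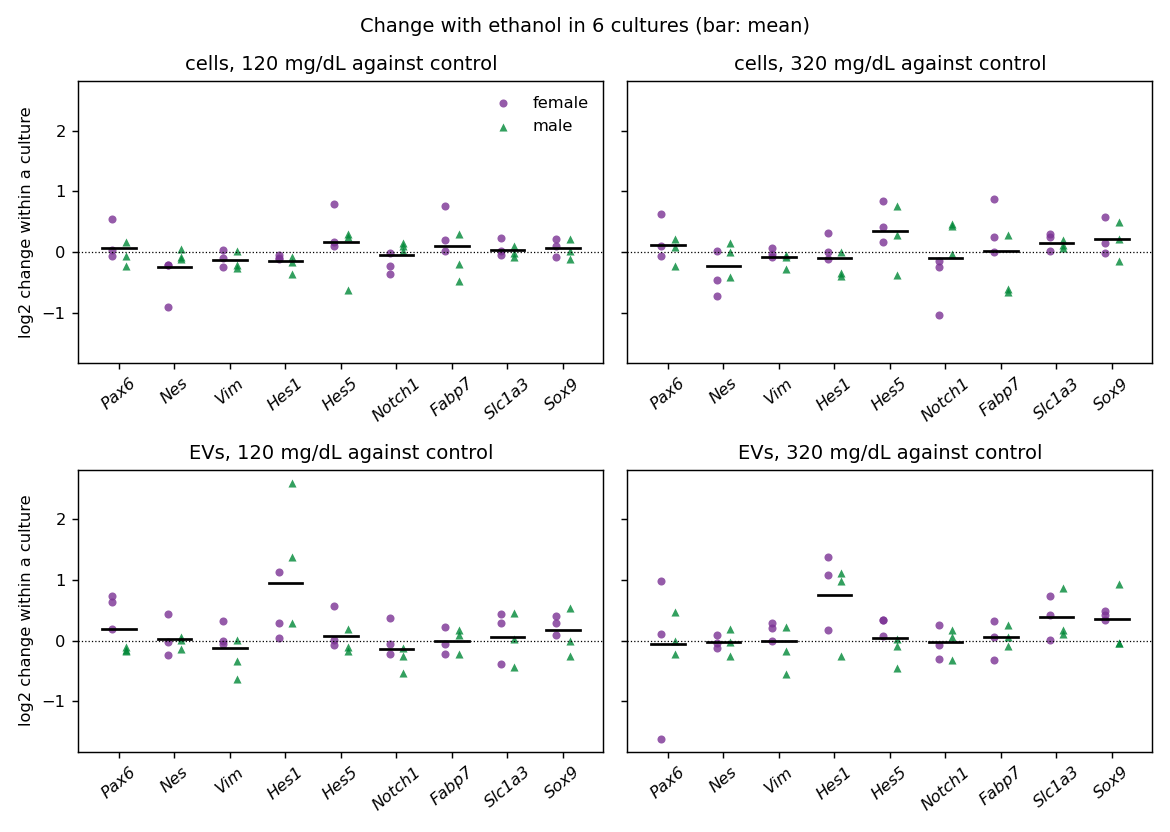
Log2 change from the control library of the same culture (y axis) for each member (x axis) in cells and EVs at 120 and 320 mg/dL; points are the 6 cultures by sex and the black bar is their mean. Hes1 in EVs shows the widest spread, with a mean of 0.95 at 120 mg/dL, and the female culture of set 4 gives the lowest point of Pax6 in EVs.

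None of the fixed lists held a gene past the threshold for ethanol in cells or EVs at either dose in edgeR. Of the 25 other Notch pathway genes tested in cells, 0 reached an unadjusted p under 0.05 at either dose, and of 20 tested in EVs 2 did at 320 mg/dL and 1 at 120 mg/dL. Notch3 was in both, at -0.64 ± 0.138 at 320 mg/dL (adjusted p = 0.118, edgeR) and -0.40 ± 0.137 at 120 mg/dL (adjusted p = 0.769, edgeR). The median change of the list at 320 mg/dL was -0.04 in cells and 0.05 in EVs, against -0.01 and 0.01 over all genes tested.

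The EV to cell ratio, taken within pairs of EV and cell library, was compared between doses. The fit did not match the ratio of a culture at a dose to that of its own control. Differences in ratio between cultures thus entered its error. At 320 mg/dL 0 of 9 members passed in edgeR (0% of 18728 genes) and in DESeq2, and at 120 mg/dL 0 of 9 passed (0.00534% in edgeR), again in both tools. At the unadjusted level Hes1 stood alone at each dose, 1 of 9, against 1.20% of all genes at 320 mg/dL and 0.902% at 120 mg/dL. Its ratio was higher in 6 of 6 cultures at each dose, by 0.97 ± 0.428 at 320 mg/dL and 1.19 ± 0.424 at 120 mg/dL on the log2 scale, with an adjusted p of 1 in edgeR. The ratio shares its control and EV libraries with the EV comparison, so it adds no separate evidence. The intervals of the other 8 members reached from -1.24 to 1.13.

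Female and male cultures were compared on counts summed over doses, which leaves 3 cultures a sex. In cells 0 of 9 members passed in edgeR (0.0334% of 20972 genes) and in DESeq2, and 0 of 9 at the unadjusted level (7.78% of all genes). In EVs 0 of 9 passed in both tools (0% of 14847 genes in edgeR), and 0 of 9 at the unadjusted level (20.7%). Fabp7 in cells was higher in the female culture of all 3 sets, by 0.51 ± 0.206 on the log2 scale (adjusted p = 0.639, edgeR), and Slc1a3 was lower in all 3, by 0.37 ± 0.199 (adjusted p = 0.716, edgeR). The intervals over members reached from -1.25 to 1.93 in cells, so a difference of 2-fold would not have been told from none for some members.

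The change with 320 mg/dL was also compared between the sexes. In cells 0 of 9 members passed in edgeR (0% of 18725 genes), 1 passed in DESeq2, which called 118 of 30506 genes, and 2 of 9 reached the unadjusted level (18% of all genes). In EVs 0 of 9 passed in both tools (0% of 13193 genes in edgeR), with 0 of 9 at the unadjusted level (3.96%). Notch1 in cells went from 106 to 53.4, from 77.05 to 64.7 and from 126 to 114 CPM in the female cultures of sets 3, 4 and 5. In the male cultures it went from 78.7 to 102, from 108 to 105 and from 102 to 139 CPM. The female minus male difference of the change was -0.78 ± 0.225 (adjusted p = 0.219 in edgeR and 0.0492 in DESeq2). Fabp7 in cells went from 730 to 1389, from 745 to 746 and from 707 to 844 CPM in females and from 822 to 518, from 587 to 702 and from 486 to 306 CPM in males, a difference of 0.68 ± 0.268 (adjusted p = 0.241, edgeR). The female culture of set 3 at 320 mg/dL, which moved most for both genes, had the smallest TMM factor among cell libraries, 0.958. Without set 3 the difference was -0.43 for Notch1 (adjusted p = 0.884, edgeR) and 0.31 for Fabp7 (adjusted p = 0.888, edgeR), and without set 4 it was -1.03 (adjusted p = 0.0785) and 1.18 (adjusted p = 0.0646).

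For each member the 2 genes of most similar pattern were sought among 8014 genes with a mean of at least 10 CPM, by Pearson correlation of log2 CPM over the 18 cell libraries. Hes5 was most like Btg2 (r = 0.96), an antiproliferative gene of neuron-forming progenitors, and Tnfrsf19 (0.95). Nes was most like Dhx37 and the actin-bundling gene Fscn1 (both 0.98), and Vim like Igfbp2 (0.97) and Ing5 (0.96). Sox9 was most like Nr4a1 (0.95) and Atp1b2 (0.94), Slc1a3 like Marchf7 and Snx14 (both 0.96), and Fabp7 like Mcts1 and Mrpl47 (both 0.95). Notch1 was most like Plxnb1 (0.94) and Tnrc6c (0.93), Hes1 like Alg13 (0.96) and Pcp4l1 (0.95), and Pax6 like Sybu and Tprkb (both 0.94). The 18 libraries come from 6 cultures, and these correlations are descriptions with no p.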

How the data were processed

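RNA of NSC neurospheres and of their EVs was sequenced from rRNA-depleted, stranded libraries. The authors trimmed reads with Trimmomatic, aligned them to mm39 with STAR and assigned them to genes with HTSeq, and the deposited values are whole counts per gene and library, without normalization. The tools are named in the submitters' processing notes, and the annotation and strand setting of the counting are not given in the sources used here. EVs had passed a 0.2 µm filter before ultracentrifugation.

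Groups follow the labels. Counts, as deposited, were tested in R 4.3.3 with edgeR 4.0.16 (filterByExpr with a minimum count of 10 and a minimum total of 15, TMM, quasi-likelihood F test, Benjamini-Hochberg adjusted p under 0.05) over all genes. Log2 differences are given with a Wald SE or a 95% interval. The EV against cell fit had sex and dose as covariates and takes the 3 libraries of a culture as independent. Doses were compared with the culture as a block, EV to cell ratios with the pair as a block, and sexes on counts summed over doses with the set as a block. The sign-change test used log2 CPM with a prior count of 1 and all 64 sign patterns. A replicate is 1 culture in the dose and sex tests, whose p-values measure the spread between these 6 cultures of 3 litters. In the ratio test a replicate is 1 of 18 pairs, and the 3 pairs of a culture are taken as independent. The EV against cell p-values rest on 18 libraries a side, of which the doses of a culture are correlated, and are too small for 6 cultures. Scripts were tested on simulated data.

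The EV and cell library of a pair come from the same flasks and the doses of a culture from the same cells. Correlations of their deviations from group means had medians of 0.0719 for EV and cell pairs, and 0.679 in cells and 0.196 in EVs for dose and control. Female and male libraries of a set had medians of 0.376 in cells and 0.106 in EVs.

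The genes named are the 10 members, list genes past the threshold or defining a list, the 2 genes with the highest correlation with each member (mean of at least 10 CPM in cells) and genes whose span overlaps a member. Notch3 in the ethanol tests was named after its values were seen. Some list genes are not reported here by name. The members and lists were chosen with earlier results of these data known. Alternatives were DESeq2 1.42.0, median-of-ratios and upper-quartile factors, library totals, no filter, thinning, leaving out sets or shallow libraries, control libraries alone, sums over doses, other blocks and prior counts of 0.5 and 5. One more, without the EV library of the female culture of set 4 at 320 mg/dL, was added after seeing the data. Transcript length, GC content and GRCm39 positions are from GENCODE vM39 by symbol, and overlaps and promoters from RefSeq (GRCm38.p6). No entry was found in the promoter table for Hes1 and Sox9.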

Additional observations from a re-analysis of the deposited data

Results flagged for a closer look

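In 54 groups of 6 libraries (9 members, cells or EVs, 3 doses), 3 values lay far from the other 5 by Dixon's test of the gap to the nearest value, and chance flags about 1 in 20 groups. In EVs without ethanol, Sox9 was at 115 CPM in the female culture of set 5 against 56.0 to 70.2 CPM in the others, which lifts the highest control value given above. In EVs at 120 mg/dL, Pax6 was at 19.0 CPM (61 counts) in the same culture against 11.1 to 12.8 CPM in the others. In EVs at 320 mg/dL, Pax6 was at 1.70 CPM in the female culture of set 4, against 12.6 to 18.2 CPM in the others. That value is 1 count, in the library with the smallest TMM factor (0.383).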

How the results depend on the processing

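Of 140 counts of members past a threshold recomputed under an alternative, 135 stayed within 1.5 times the reported count. The 5 others were the change at 120 mg/dL in EVs without the filter (1 member, Hes1), female against male with the 18 libraries not summed and the set as a replicate block (2 members in cells, Fabp7 and Slc1a3, and 1 in EVs, Sox9, a fit that takes the doses of a culture as independent), the sex difference at 320 mg/dL in cells in DESeq2 (1 member, Notch1), and the sign-change tests on library totals (2 of 36 at the smallest p, without both of Slc1a3). In edgeR the reported count was 0 in every comparison but EVs against cells, and a count can hold while its members change. With library totals Pax6 passed between EVs and cells (adjusted p = 6.85e-06, edgeR) and Sox9 did not (adjusted p = 0.301, edgeR). For EVs against cells, directions turned 3 times: Sox9 with library totals (-0.23) and without the filter (-0.068), and Pax6 with every library thinned to the smallest total (0.016). The cause was not tested. In the ethanol, ratio and sex comparisons, where no member passed in edgeR as reported, differences near 0 took the other sign under some alternatives, such as Vim at 320 mg/dL in EVs (7 of 12 alternatives), Fabp7 at 320 mg/dL in cells (4 of 10) and Slc1a3 in the ratio at 120 mg/dL (8 of 11). With each EV library and its cell library as a replicate block, 9 of 9 members passed between EVs and cells, since Pax6 was added (-0.34), and no other call on a member changed with the block on the pair. Without the culture as a block, 0 members passed at either dose in cells or EVs. Over all genes, calls between EVs and cells ran from 6380 (thinned) to 23256 (DESeq2) against 12302. In DESeq2, calls for 320 mg/dL were 94 in cells and 267 in EVs, against 7 and 10 in edgeR, and the highest counts over the alternatives were 4 in cells and 157 in EVs at 120 mg/dL (0 and 1 in edgeR), 3 and 128 between 320 and 120 mg/dL (0 and 0), 2 and 3 for the ratio at 320 and 120 mg/dL (0 and 1), 2953 and 2993 between the sexes (7 and 0) and 118 and 165 for the sex difference at 320 mg/dL (0 and 0). The sign-change test was not run with a set left out, since 4 cultures cannot reach a p under 0.05. Depth limits Hes1 (2 to 39 counts) and Pax6 (1 to 62 counts) in EV libraries most.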
